A study of Mus musculus with 25 samples.

Results

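The genes that encode the subunits of the proteasome, and the factors that assemble it, were followed in mouse lung through 4 days of calorie restriction. Members were all genes of the Affymetrix MG-U74Av2 array whose probe sets carried a single annotated symbol made of Psm, a letter from a to g and a digit, with 1 further beta subunit symbol left out. The rule found 45 genes, measured by 57 probe sets, among the 8251 genes with such a single symbol. A probe set was kept when it reached the array's own median signal on at least 2 arrays, and 42 of the 45 genes were kept, out of 5706 genes kept in all. Of the 3 others, Psmd2 had a median signal of 79.23 over the 24 arrays, Psmc4 of 120.9 and Psmc3ip of 29.85, all dim, and their signals are not described further. Psmc3ip, and Psme3ip1 among the genes kept, match the symbol rule but encode no subunit. Where a gene had several probe sets, the brightest stood for it.

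The study hybridised lung RNA of C57BL/6 mice, an inbred laboratory strain, to 24 arrays. Restricted mice (CR) received food cut by 2/3 and were killed at 2, 4, 12, 24, 48, 72 or 96 h, with 2 arrays for each time. Fed lungs came from 0 h, with 4 arrays, and from 2, 4 and 12 h, again with 2 per hour. The labels call the control mice always fed but repeat the words for the reduced ration, so that their feeding is not certain. Sex, age and the number of animals behind an array are not given in the labels used here. Arrays of a group carry the letters a and b, which may be repeat arrays of 1 RNA; if so, the spread behind every p-value below is technical. Fed 0 h holds 2 label numbers, 1 and 2, with an a and a b array each. Lung marker genes were present on every array: Sftpc, Sftpb and Sftpd, the surfactant proteins of alveolar type II cells, summed to 44905 or more.

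The 26S proteasome degrades proteins that have been tagged with ubiquitin. Its 20S core is a barrel of alpha subunits (Psma genes), which form the gate, and beta subunits (Psmb genes), some of which carry the cutting sites. The 19S cap recognises, unfolds and feeds in the substrate with its ATPases (Psmc genes) and its receptor, scaffold and deubiquitinating subunits (Psmd genes), while the activators PA28 and PA200 (Psme genes) open the core without ubiquitin, and dedicated chaperones (Psmg genes, Psmd5, Psmd9 and Psmd10) build the particles. In cells of the immune system, and elsewhere under interferon, the subunits Psmb9 and Psmb10 replace constitutive cutting subunits and make the immunoproteasome, which is known for producing peptides for presentation on MHC class I. In muscle, fasting is known to raise proteasome genes, and in many cells the transcription factor Nfe2l1 raises them together through antioxidant response elements.

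The promoters of 38 of the 45 genes were found in the RefSeq table of build GRCm38.p6. Those of Psmb5 and Psmb6, constitutive cutting subunits, are printed because they hold the core of the antioxidant response element, TGACNNNGC. That of Psmb9, the immune counterpart of Psmb6, is printed because this gene had the largest late difference from fed 0 h among the members. No promoter of Psmb7 was among the 38. Each run holds the 250 bases before the annotated start, 5′ to 3′ on the gene's strand. Capitals mark TGACNNNGC in Psmb5 and Psmb6, and in Psmb9 the reverse complement of CCAAT, the box bound by NF-Y. Psmb5 lies upstream of the start on the minus strand at chr14:54617996-54618245, Psmb6 on the plus strand at chr11:70525107-70525356 and Psmb9 on the minus strand at chr17:34187331-34187580.
Psmb5: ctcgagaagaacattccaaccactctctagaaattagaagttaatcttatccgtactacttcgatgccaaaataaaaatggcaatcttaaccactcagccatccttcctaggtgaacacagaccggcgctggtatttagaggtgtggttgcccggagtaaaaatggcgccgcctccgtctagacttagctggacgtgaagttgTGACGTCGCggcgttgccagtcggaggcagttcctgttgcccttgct
Psmb6: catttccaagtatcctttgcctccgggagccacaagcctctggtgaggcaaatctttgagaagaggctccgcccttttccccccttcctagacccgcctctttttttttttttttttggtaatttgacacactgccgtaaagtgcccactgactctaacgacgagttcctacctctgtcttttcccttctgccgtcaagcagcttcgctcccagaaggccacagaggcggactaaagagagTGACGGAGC
Psmb9: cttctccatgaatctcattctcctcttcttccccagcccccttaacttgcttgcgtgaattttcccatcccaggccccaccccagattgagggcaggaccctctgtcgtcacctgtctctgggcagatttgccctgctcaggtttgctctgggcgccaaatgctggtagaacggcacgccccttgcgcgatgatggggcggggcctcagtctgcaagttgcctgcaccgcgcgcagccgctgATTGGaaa
On either strand, TGACNNNGC was found before 5 of the 38 genes (Psmb5, Psmb6, Psmc6, Psmd12 and Psmd9), a share of 13.2% against 11.5% of all 27025 genes of the table. CCAAT was found before 15 of the 38, which is 39.5% against 37.5%, and the 15 include Psmc3ip and Psme3ip1, which encode no subunit. The core of the interferon-stimulated response element was before 3 (Psmb3, Psmd4 and Psmd9; 7.89% against 3.46%). None of these 3 patterns was in the window of Psmb10. These matches describe letters in a short window only.

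No proteasome gene was called in the first 12 h of restriction, where few genes of any kind passed. After 24 to 96 h part of the proteasome genes were lower than at fed 0 h, mainly in the core and the immunoproteasome. Most of that late difference lay against 1 of the label numbers of fed 0 h, in which 13 of the 14 core genes were higher than in the other number, with a median difference of 1.13 on the log2 scale over the 14. What was left when the other controls were used was small. Against fed 0 h number 2 it was the core gene Psmb1, by its brighter probe set only. Against the fed lungs of 2 to 12 h it was the immunoproteasome gene Psmb10, in the fit with fed 0 h as 1 group. With fed 0 h split by number, the fit used for number 2, it was 6 members, beside 18.9% of all genes. Values below are scaled signals, on a linear scale; differences are on the log2 scale, and a change was called where limma's p, adjusted by Benjamini-Hochberg over the 7440 probe sets kept, was under 0.05.

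**Figure D1:**
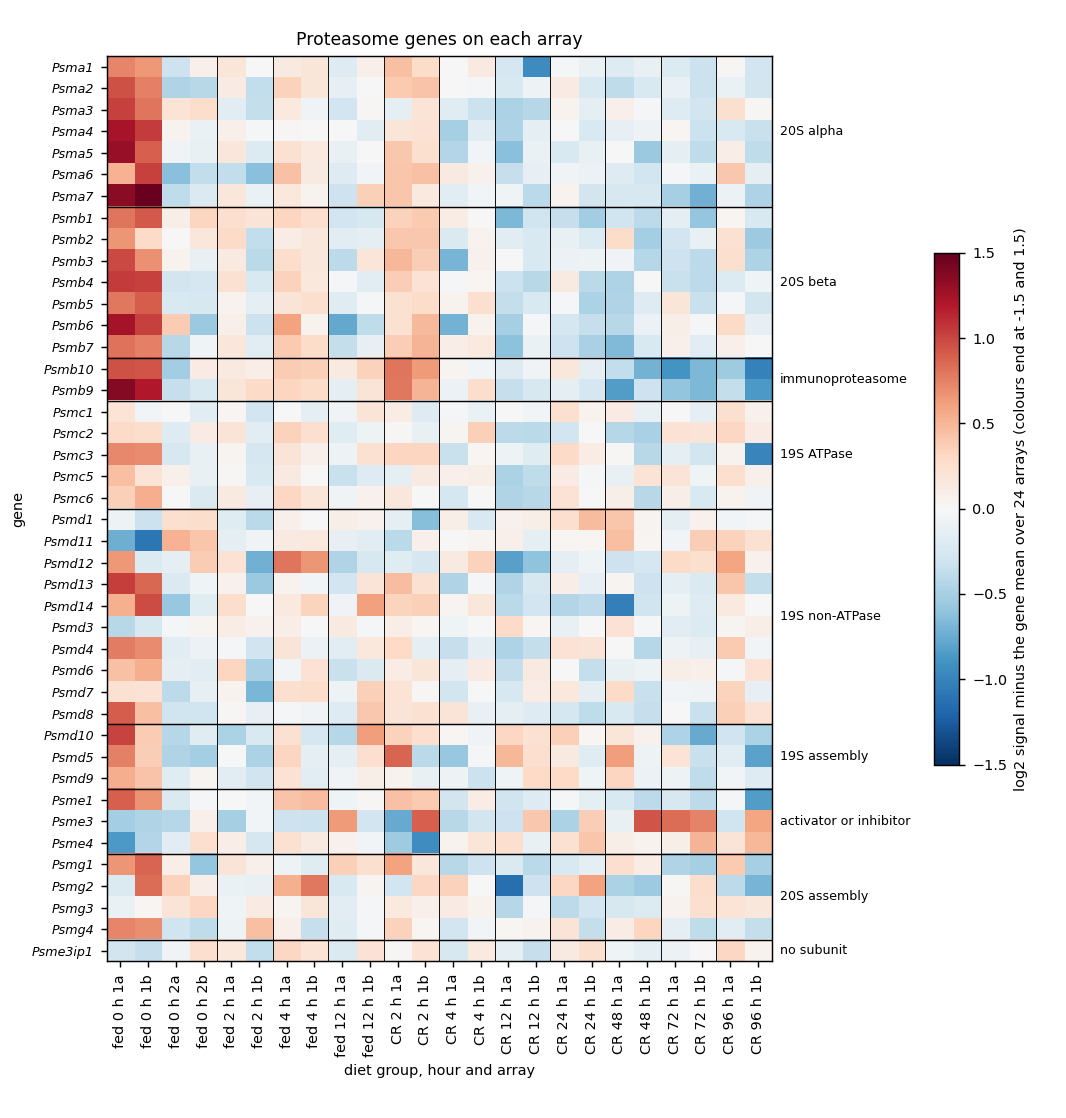
Each row is 1 of the 42 proteasome genes kept, ordered by class, and each column is 1 array, ordered by diet and hour; colour gives the log2 signal minus the gene's mean over the 24 arrays. The 2 arrays of fed 0 h number 1 stand out as high through the alpha, beta and immunoproteasome rows, with a median deviation over all members of 0.68 to 0.72.

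The 4 fed 0 h arrays did not form 1 group for these genes. For Psma7, an alpha subunit, the signal was 3400 and 3735 on the arrays of number 1 but 1024 and 1146 on those of number 2. The 6 fed arrays of 2, 4 and 12 h ran from 1077 over a median of 1437 to 1701, so that number 1 lay above all of them and 1 of the number 2 arrays below all of them. Number 1 was higher by 1.72 (95% interval 1.29 to 2.14, n = 2 and 2 arrays, limma adjusted p = 4.59e-06, from a fit with fed 0 h split by number).

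Of the 42 members 28 were higher in number 1, beside 20.2% of all genes, and 4 were lower, beside 21.2%. In either direction 41.3% of all genes were called. The median difference of the members was 0.87, and that of all genes -0.02. All 7 alpha subunits, 6 of the 7 beta subunits and both immunoproteasome genes were higher, among them Psmb4, a beta subunit, by 1.30 and Psmb9 by 1.58. In the 19S cap 2 of 5 ATPases were higher, and of the 10 other subunits 5 were higher and 3 lower. The assembly factors of the cap, Psmd5, Psmd9 and Psmd10, were all higher, as were Psmg1 and Psmg4 among the 4 core chaperones.

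The members that ran the other way were Psmd11, Psme4, Psmd1 and Psmd3. Psmd11, a scaffold subunit of the cap lid, had 2893 and 2276 on number 1, 6933 and 6444 on number 2, and 4281 to 5326 on the fed arrays of 2 to 12 h. Number 1 was thus the lowest and number 2 the highest of the fed arrays, with a difference of -1.38 (95% interval -1.75 to -1.02, adjusted p = 8.24e-06), and the 2 other probe sets of Psmd11 gave -1.05 and -0.73. The difference was -0.70 for Psme4, which encodes the activator PA200, -0.45 for Psmd1, a large base scaffold, and -0.35 for Psmd3, a lid scaffold. The call of Psme4 was lost without array a of number 1 or b of number 2 (-0.49 in both).

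The label number moved together with array properties and with marker genes. The arrays of number 1 belong to the 12 arrays whose highest signal was 74440 or more, with fed 12 h and CR 2, 12, 24 and 48 h, and those of number 2 to the 12 with at most 54310, with fed 2 and 4 h and CR 4, 72 and 96 h. The summed signal of the 4 B cell markers measured was 8397 to 9351 in number 1 and 2220 to 3809 in number 2. The 4 measured markers of natural killer and cytotoxic cells summed to 1596 to 1652 and 674.1 to 771.4, the 8 macrophage markers to 30883 to 33773 and 17826 to 24014, and the 3 neutrophil markers to 4147 to 5330 and 1617 to 1933. Sums were also higher in number 1 for the 2 erythroid markers (75155 to 80594 against 37012 to 39374), the 3 type II markers (108254 to 110219 against 64871 to 77408) and the 2 club cell markers (77683 to 90544 against 69505 to 75647). They were lower for the ciliated cell gene Foxj1 (1037 to 1093 against 1741 to 2132), the 2 type I markers (27158 to 28707 against 29536 to 33806) and the 6 endothelial markers (23488 to 24504 against 24814 to 32881), and they overlapped for the T cell and heart muscle markers. No marker of these lists was at the floor throughout. In bulk lung, fewer cells of a type and less RNA per cell cannot be told apart, and the part of cell makeup or signal range in the proteasome difference between the numbers was not tested.

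**Figure D2:**
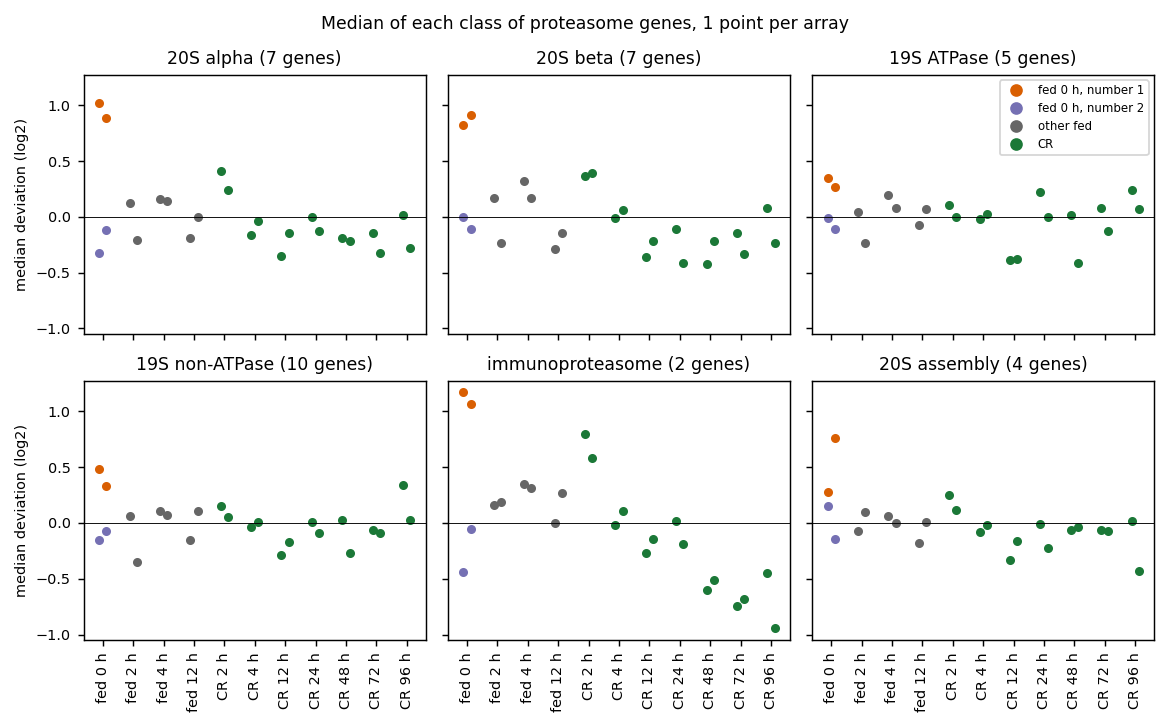
Each panel is 1 class of proteasome genes, and each point is 1 array: the median over the class of log2 signal minus the gene mean, by diet group and hour. In the alpha class the fed 0 h arrays of number 1 lie at 0.89 and 1.02 and all other arrays between -0.35 and 0.41, while in the immunoproteasome class CR 48, 72 and 96 h lie from -0.94 to -0.45, at or below the lowest fed arrays.

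In the first 12 h each restricted group was set against fed lungs of its own hour, which asks for an effect of the missing food apart from time of day. None of the 42 members was called in the mean of the 3 differences, where 0.0351% of all genes were, and none had an unadjusted p under 0.05. The median difference of the members was -0.03, within a range of -0.33 to 0.28. The alpha subunits had a median of -0.11, the beta subunits of 0.01 and the ATPases of -0.02. The 95% intervals reached 0.38 to either side at the median gene, and 0.66 at a single hour, which limits what could be resolved.

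The direction differed from hour to hour. At 2 h, 37 of the 42 members were higher in CR, with a median of 0.26, and 21 had both CR arrays above both fed arrays, which held for 27.2% of all genes. At 4 h, 38 were lower, with a median of -0.23, and 24 had both arrays below, against 31.4% of all genes. At 12 h, 33 were lower, with a median of -0.20, and 17 had both arrays below, against 19.6% of all genes. Of all genes, 44%, 63.3% and 52.8% were lower at 2, 4 and 12 h, with medians of 0.05, -0.07 and -0.02. At none of these hours was a member called, beside 0%, 0% and 0.193% of all genes, and 2, 0 and 0 members had an unadjusted p under 0.05. No member was called by limma's F test of differences between the 3 hours, nor had one an unadjusted p under 0.05.

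Psmb10, an immunoproteasome subunit, is an example whose shifts were larger than the members' median at each hour. It had 0.60 at 2 h, -0.37 at 4 h and -0.36 at 12 h, and was not called at any of them. Its signal was 4109 and 3681 at CR 2 h against 2599 and 2536 at fed 2 h, 2430 and 2290 at CR 4 h against 3064 and 3013 at fed 4 h, and 2070 and 2283 at CR 12 h against 2584 and 3001 at fed 12 h. The pairs do not overlap at any hour, with CR above at 2 h and below at 4 and 12 h. At 2 h the CR arrays were of the high and the fed arrays of the low signal range, so that range and diet cannot be told apart there, while at 4 h and at 12 h both diets shared a range.

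Restriction of 24 to 96 h was compared with fed 0 h, the fed group of the same clock time. The 3′ to 5′ signal ratio of the control gene Gapdh, a sign of RNA quality, was 1.76 to 2.02 at fed 0 h and 1.01 to 1.66 at fed 2 to 12 h. It was 1.95 to 2.15 at CR 48 h and 1.21 to 1.49 at the other late times, and its part was not tested. The same ratio for actin overlapped, with 1.87 to 2.31 at fed 0 h, 1.47 to 2.37 at fed 2 to 12 h and 1.63 to 3.81 late. Of the 42 members 9 fell, beside 8.55% of all genes, and 1 rose, beside 10.1%, in the mean of the 4 times. In either direction that is 23.8% of the members and 18.6% of all genes. The members' median was -0.37, with 34 of 42 below 0, and that of all genes was 0. All 14 constitutive core subunits had negative differences, with a median of -0.60, and the 15 genes of the 19S cap had a median of -0.16, with none called. Single arrays of fed 0 h set the count: it was 3 without array a or without array b of number 1, 20 without a of number 2 and 17 without its b. It was 6 without array b of CR 72 h and 5 without array b of CR 96 h. Psmb1, Psma3 and Psmb10 passed without any 1 array, and the others named below did not. For the 10 members called, and for some others, the late difference is therefore given against each number as well.

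Among the alpha subunits, which gate the core, 4 of 7 fell: Psma3, Psma4 (-0.72), Psma5 (-0.72) and Psma7 (-0.87). Against number 1 Psma4, Psma5 and Psma7 had -1.30, -1.31 and -1.73, and against number 2 they had -0.13, -0.13 and -0.01 (adjusted p = 0.57, 0.722 and 0.981), and none of the 7 was called against number 2. Psma3 had 17689, 15168, 10060 and 10490 on the fed 0 h arrays. It had 9028 and 7968 at CR 24 h, 9150 and 8570 at 48 h, 7626 and 7209 at 72 h, and 10264 and 8785 at 96 h. All late arrays but 1 of 96 h lay below all fed 0 h arrays, a difference of -0.61 (95% interval -0.90 to -0.32, adjusted p = 0.00711). Against number 1 alone it was -0.94 (adjusted p = 2.04e-06) and against number 2 alone -0.27 (adjusted p = 0.175). Its fed arrays of 2 to 12 h were as low, from 6781 to 9630, and Psma3 was the only member called in fed 2 to 12 h against fed 0 h (-0.69, adjusted p = 0.0197), a comparison that called 1.79% of all genes and shares the fed 0 h controls. That call was lost without array a or b of fed 0 h number 1, a of fed 12 h, b of fed 2 h or b of fed 4 h (adjusted p = 0.0543 to 0.064), and 2 and 3 members were called without a and b of number 2. Its probe set, like those used for Psmb4, Psmb7 and Psmc3, has a name ending in _f_at, which marks probes shared with similar sequences.

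Among the constitutive beta subunits Psmb1 and Psmb3 (-0.60) fell, and the cutting subunits Psmb5 (-0.51), Psmb6 (-0.63) and Psmb7 (-0.49) were not called. Psmb3 had -1.04 against number 1 and -0.17 against number 2 (adjusted p = 0.671), and it passed in 16 of 41 alternatives. Psmb5, Psmb6 and Psmb7 had -1.05, -1.25 and -1.0 against number 1 and 0.03, -0.02 and 0.03 against number 2. Psmb1, a structural beta subunit, had 5659, 6122, 3446 and 4050 on the fed 0 h arrays, the first pair from number 1. It had 2547 and 2267 at CR 24 h, 2646 and 2481 at 48 h, 2948 and 2169 at 72 h, and 3301 and 2764 at 96 h. Psmb1 was the only member with all 8 late arrays below all 4 fed 0 h arrays, which held for 2.42% of all genes. The difference was -0.84, or 1.79-fold (95% interval 1.46 to 2.20, limma adjusted p = 0.00067), and it was called at 24, 48 and 72 h on their own, hours at which 2.72%, 5.52% and 6.13% of all genes were.

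Psmb1 was lower against either number, with -1.17 against number 1 (adjusted p = 3.96e-07) and -0.51 against number 2 (adjusted p = 0.0137). It was the only member called against number 2, where 8.01% of all genes were called, against 32 members and 50.9% of all genes for number 1. Fed lungs of 12 h were low too, with 2663 and 2749, both below all fed 0 h arrays (-0.79, adjusted p = 0.0458, the only member called at that hour, with 2% of all genes), whereas fed 2 h had 3875 and 3704 and fed 4 h 4056 and 3875. Restricted lungs of 2 h had 4126 and 4249, of 4 h 3515 and 3239 and of 12 h 2039 and 2630, so that in both diets the signal was highest at 2 or 4 h and lowest at 12 h among these hours. Against the fed arrays of 2 to 12 h together the late difference was -0.39 (adjusted p = 0.0672). A second, dimmer probe set of Psmb1 gave -0.56 against fed 0 h (adjusted p = 0.0707) and 0.09 against number 2 (limma adjusted p = 0.718). The lower signal against number 2 thus rests on the brighter probe set alone.

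**Figure D3:**
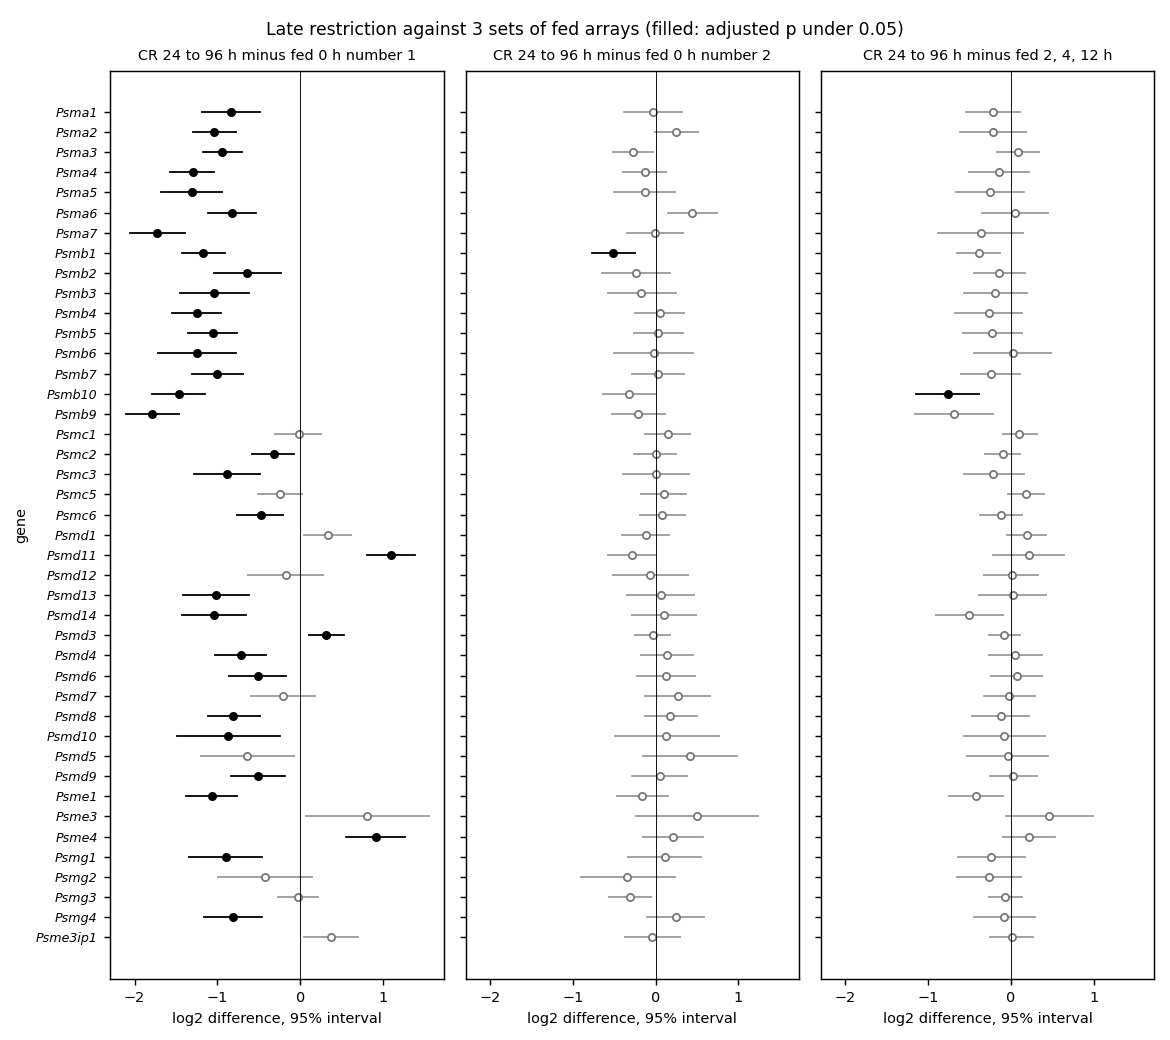
Each point is the log2 difference of 1 proteasome gene, with its 95% interval, for late restriction (mean of 24 to 96 h) against fed 0 h number 1, against number 2 and against the fed arrays of 2 to 12 h. Core genes lie near -1 in the first panel, with medians of -1.04 (alpha) and -1.05 (beta), and close to 0 in the second, with medians of -0.03 and -0.02.

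Both immunoproteasome genes fell, with differences as large as or larger than that of any core gene but with overlapping intervals. Psmb9 had 3516 and 3114 on the arrays of fed 0 h number 1 and 1061 and 1153 on those of number 2. It had 1234 and 1140 at CR 24 h, 759 and 1090 at 48 h, 901.9 and 848.7 at 72 h, and 1057 and 747.9 at 96 h. Except for 3 of the first 4 values, these lie below all fed 0 h arrays, and the difference was -1.0, or 2.00-fold (95% interval 1.37 to 2.91, adjusted p = 0.0136). It was -1.79 against number 1 and -0.21 against number 2 (adjusted p = 0.46).

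Psmb10 had 4566 and 4522 on number 1 and 1636 and 2574 on number 2. In restricted lungs it had 2651 and 2147 at 24 h, 1833 and 1447 at 48 h, 1269 and 1475 at 72 h, and 1625 and 1165 at 96 h, so that the 4 arrays of 72 and 96 h lie below all fed 0 h arrays and those of 24 h do not. The late difference was -0.89 (95% interval -1.33 to -0.46, adjusted p = 0.00767), and it was called at 72 h (-1.16) and at 96 h (-1.15) on their own, the latter beside 6.78% of all genes. Against number 1 it was -1.47 and against number 2 -0.32 (adjusted p = 0.23), and CR 72 and 96 h alone against number 2, which share the low signal range, were called lower (-0.58, adjusted p = 0.0319), with 11% of all genes called. That last comparison also called Psmb1 lower by its brighter probe set (-0.43). It called the alpha gene Psma6 higher (0.54, limma adjusted p = 0.0314), and the median of all members was 0.

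Psmb10 was also the only member called when late restriction was set against the fed arrays of 2, 4 and 12 h, in the fit with fed 0 h as 1 group. This comparison does not use the level of the fed 0 h arrays, and it called 6.55% of all genes. For Psmb10 the 6 fed arrays ran from 2536 over a median of 2800 to 3064, and the 8 late arrays from 1165 over 1550 to 2651, with only 1 array of CR 24 h above the lowest fed array. The difference was -0.76, or 1.70-fold (95% interval 1.30 to 2.21, adjusted p = 0.015). Psmb9 had 1230 to 1691 on the fed and 747.9 to 1234 on the late arrays, a difference of -0.69 (95% interval -1.16 to -0.21, adjusted p = 0.0831), not called. The median of all 42 members in this comparison was -0.09, and that of all genes 0.02, with 27 members below 0. With fed 0 h split by number, the fit behind the differences from number 1 or 2, 6 members were called lower, beside 18.9% of all genes called. These were Psmb10, Psmb9, Psmb1, Psme1, Psma7 and Psmd14. Clock hour and diet cannot be told apart here, since late restricted lungs were taken at multiples of 24 h and these fed lungs were not.

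Within 1 signal range the difference of Psmb10 was called for CR 72 and 96 h against fed 2 and 4 h (-1.03, adjusted p = 0.016) and not for CR 24 and 48 h against fed 12 h (-0.50, adjusted p = 0.546). Without array b of fed 12 h its adjusted p over all late times was 0.0536, and no member was called, while without single arrays of fed 0 h, which widen the spread shared by the fit, 2 or 3 were. Some genes of immune cells moved beside it: all 4 B cell markers were lower in late restriction than in fed 2 to 12 h, with sums of 1813 to 3310 against 4657 to 6990. Of the 3 markers of natural killer and cytotoxic cells kept, 2 were lower, with sums of 331.1 to 721 against 840.3 to 1355 over the 4 measured. Only 2 of 7 macrophage markers were lower, and the macrophage sums overlapped, with 20565 to 25251 against 24365 to 28213. The comparison called 2.87% of all genes lower. Sums also overlapped for the neutrophil markers (1671 to 3738 against 1702 to 4331) and the T cell markers (498.1 to 795.2 against 613.7 to 942.5). The part of these cells in the lower Psmb10 signal was not tested.

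**Figure D4:**
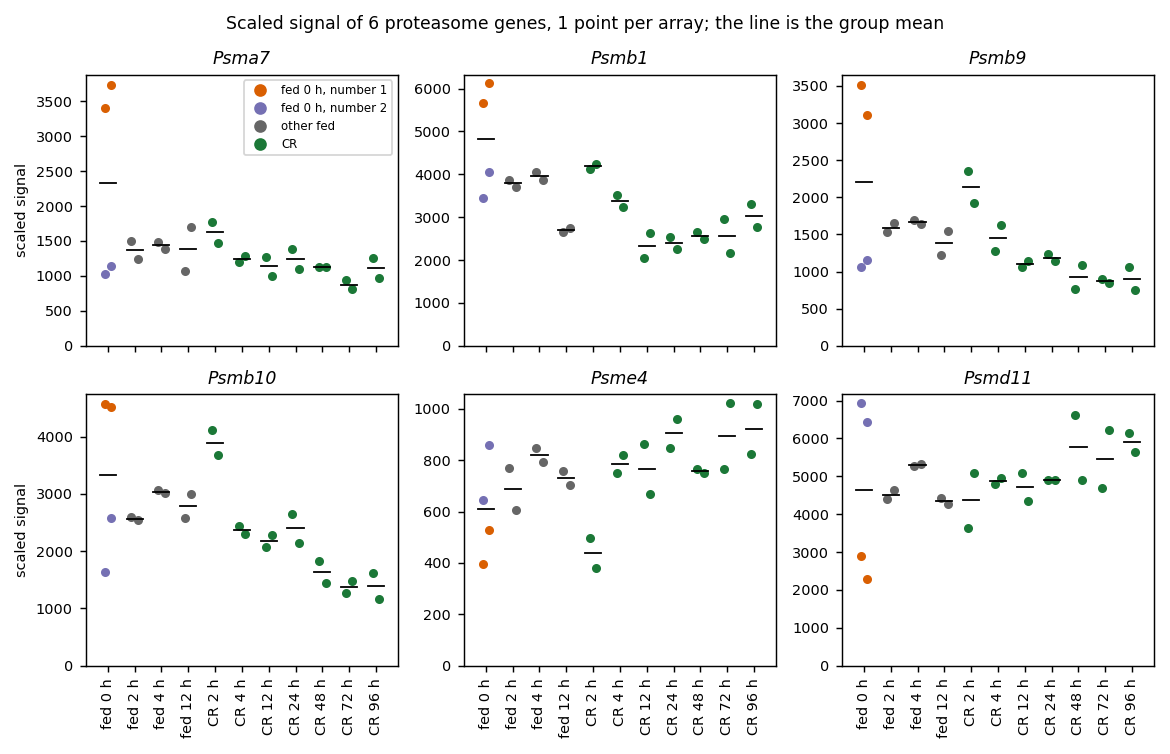
Scaled signal of 6 proteasome genes on a linear axis from 0, with 1 point per array and a line at each group mean, by diet group and hour. For Psmb10 the arrays of CR 72 and 96 h (1165 to 1625) lie below every fed array, and for Psmb1 all late arrays (2169 to 3301) lie below the 4 fed 0 h arrays (3446 to 6122).

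The activators did not move as a group. Psme1, the PA28 alpha subunit that is induced by interferon and favours peptide production for presentation, had 6377, 5465, 2957 and 3353 on the fed 0 h arrays. It had 3358 and 3110 at CR 24 h, 2931 and 2611 at 48 h, 2913 and 2620 at 72 h and 3360 and 1921 at 96 h, so that 5 of the 8 late arrays lie below all fed 0 h arrays. It fell by 0.62 on the log2 scale (95% interval -0.99 to -0.24, adjusted p = 0.0247), with -1.07 against number 1, -0.16 against number 2 (adjusted p = 0.568) and -0.42 against the fed arrays of 2 to 12 h (adjusted p = 0.13).

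Psme4, PA200, was the only member that rose in the late mean against fed 0 h. It had 396.5, 530, 645.5 and 860.7 on the fed 0 h arrays and, at CR 24, 48, 72 and 96 h, 847.5 and 960.5, 765.1 and 750.9, 764.9 and 1024, and 822.8 and 1019. The late arrays lie above 3 of the 4 fed 0 h arrays and overlap with the other, and the difference was 0.56 (95% interval 0.20 to 0.92, adjusted p = 0.0297). Against number 1 it was 0.91 (adjusted p = 0.000224), against number 2 0.21 (adjusted p = 0.513) and against fed 2 to 12 h 0.22 (adjusted p = 0.432). Psme3, the nuclear PA28 gamma, varied widely between a and b arrays, such as 584.5 and 1829 at CR 2 h, and its late difference of 0.66 was not called (95% interval 0.06 to 1.25, adjusted p = 0.111).

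In the 19S cap limma called no gene in the late mean, and 3 of its 15 genes (Psmc3, Psmd13 and Psmd14) had an unadjusted p under 0.05. The ATPase with the smallest p was Psmc3, which had 2477, 2466, 1275 and 1391 at fed 0 h and ran from 755.5 over a median of 1441 to 1835 on the 8 late arrays, a difference of -0.44 (adjusted p = 0.124). A dim probe set of the same gene was called at -0.50 (adjusted p = 0.0495). A further one, between them in brightness, had -0.06 against fed 2 to 12 h and 0.42 against number 2 (limma adjusted p = 0.0733). Psmd13, a lid subunit, had 2646, 2333, 1111 and 1234 at fed 0 h and 1004 to 1722, median 1176, on the late arrays (-0.48, adjusted p = 0.13). In both genes the late arrays lie below number 1 and around number 2, with -0.89 and -1.02 against number 1 and 0.01 and 0.06 against number 2. Psmc2, another ATPase, was called lower at CR 48 h alone: it had 1619 and 1563 there, below all fed 0 h arrays (2674, 2635, 1905 and 2376), a difference of -0.58 (adjusted p = 0.042). Its signal was 1794 and 2190 at 24 h, 2548 and 2510 at 72 h and 2704 and 2387 at 96 h, and it had the smallest p of all members in the F test between late times, which called none (adjusted p = 0.182). On the CR 48 h arrays the 3′ to 5′ signal ratio of the control gene Gapdh was 1.95 and 2.15, beside 1.21 to 1.49 at the other late times and 1.76 to 2.02 at fed 0 h, a sign of RNA quality whose part was not tested.

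Psmd14, the deubiquitinase of the lid, had 900.1 to 1423 on the 6 fed arrays of 2 to 12 h and 455.2 to 1033 on the late arrays (-0.50, 95% interval -0.91 to -0.09, adjusted p = 0.144). Psmd4, a ubiquitin receptor of the cap, had -0.29 in the late mean and Psmd1 had 0.10. The assembly genes were not called either. Psmd9, a chaperone of the ATPase ring, had 1292, 1195, 782.7 and 910.8 at fed 0 h and 681.4 to 1108 on the late arrays, with a difference of -0.23 (adjusted p = 0.283), or -0.51 against number 1 and 0.05 against number 2. Psmg2, a chaperone of the alpha ring, had 265.6, 551.3, 392.4 and 332.4 at fed 0 h and 190 to 469.8 late (-0.38, adjusted p = 0.205), with the numbers overlapping and differences of -0.42 and -0.34 from them. Psme3ip1, which matches the symbol rule but encodes a partner of PA28 gamma and no subunit, had 0.16 (adjusted p = 0.421).

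Genes that work with the proteasome were counted from a list of the ubiquitin pathway. Of 31 kept genes 4 rose, beside 10.1% of all genes, and 4 fell, beside 8.55%, in the late mean against fed 0 h, with a median of 0.03. Ube2h, a ubiquitin-conjugating enzyme (0.74), and Cul3, a ligase scaffold (0.55), rose, while Skp1, a ligase adaptor (-0.68), and Nedd8, the ubiquitin-like activator of such ligases (-0.71), fell. Against number 1 these 4 had 1.05, 0.78, -0.91 and -1.16, and against number 2, where none of the 31 was called, 0.42, 0.32, -0.46 and -0.26. Against the fed arrays of 2 to 12 h none of the 31 was called by limma, with a median of 0.05 and 6 at an unadjusted p under 0.05. In fed 0 h number 1 against number 2, 9 were higher, beside 20.2% of all genes, and 9 lower, beside 21.2%.

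Of 11 kept genes of interferon-linked antigen presentation, 2 fell against fed 0 h, beside 8.55% of all genes, and 3 against the fed arrays of 2 to 12 h, beside 2.87%. The interferon-induced genes Gbp2 (-0.63 and -0.83) and Isg15 (-1.0 and -0.90) fell in both, and Tap1, which carries the peptides into the endoplasmic reticulum, in the latter (-0.34, limma adjusted p = 0.0281). Irf1, an interferon regulatory factor, had -0.21 in both and was not called. Against number 1 and number 2 Gbp2 had -0.57 and -0.69 and Isg15 -1.31 and -0.69, called against both, while Tap1 had -0.13 and -0.27 and Irf1 -0.21 and -0.21, not called against either.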

How the data were processed

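The deposited values are linear probe set intensities, and the authors had already scaled each array: tested on the values, the mean without the outer 2% of probe sets at either end was the same on every array. The software and the animals behind each array are not given in the sources used here. Here the arrays were brought to a common median, the middle of their 24 medians. Signals below 80.37, the 25th percentile, were set to that floor, which compresses changes of dim probe sets, and log2 was taken. Of 12488 probe sets 66 controls were left out, and the 7440 that reached the array's median on at least 2 arrays were kept. The model, in limma 3.58.1 (R 4.3.3), had a mean for each of the 11 groups over all 24 arrays (intensity trend, 13 residual degrees of freedom), or for 12 groups with fed 0 h split by number. Tests were two-sided with Benjamini-Hochberg adjustment over the 7440 probe sets. The pipeline was tested on simulated data. The number of arrays limits the precision.

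Members, gene lists and tests were chosen with earlier results of these data known. Values of every array are given for up to 4 called members per direction and comparison, by smallest adjusted p, and for the member with the smallest late adjusted p in each class; list genes are named up to 4 by smallest p. Psma7, Psmd11, Psmd14, Psmc2 and Psme3 were added to that rule with their values in view. A further array, of another platform, was not used. Its title names restriction and its description re-feeding, so that it was given no group. Alternatives covered scaling, floor, filter, variance model, groups in the fit, other fed controls, a replicate block and each array left out. A further promoter motif is not reported here.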

Additional observations from a re-analysis of the deposited data

Results flagged for a closer look

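Psme3, the nuclear activator PA28 gamma, had 1 array apart from the other 3 at fed 0 h: 690.2, 718.3 and 735.1 against 1035 on array b of number 2. On the log2 scale the gap to the nearest array took 0.845 of the group's whole range. Chance sets an array apart in this way in about 1 in 20 groups of 4, and all 42 members were looked at in fed 0 h.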

How the results depend on the processing

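The early mean had 0 members called under every alternative run, and no named difference turned its sign. The other counts depended on the fed arrays and the fit. For late restriction against fed 0 h (10 called) the count was 4 with no filter, 2 with array weights, whose estimation gave a convergence warning, 1 with only the groups compared, 32 and 1 against number 1 or 2 only, 31 for CR 24 and 48 h against number 1 and 3 for CR 72 and 96 h against number 2. The comparisons with number 1 or 2 called 50.9%, 8.01%, 47.7% and 11% of all genes, in that order. Against fed 2 to 12 h (1 called) it was 2 without further scaling, 2 with quantile normalization, 5 with array weights, 5 with only the groups compared and 0 for the arrays of high signal range. For fed 2 to 12 h against fed 0 h (1 called) it was 0 with array weights and 0 with only the groups compared. It was 30 against number 1, beside 37.2% of all genes, and 2 against number 2, beside 11.4%. With fed 0 h split by number in the fit, which takes the difference between the numbers out of the residual spread, these 3 counts were 22, 6 and 7. The shares of all genes called there were 35.5%, 18.9% and 13%. At any single fed hour (1 called) the count was 0 with quantile normalization, no filter, no intensity trend, array weights or the replicate block, and the F test between late times (0 called, with 3 members at an unadjusted p under 0.05) gave 1 with array weights. The split fit, the signal ranges, 4 and 12 h alone, the fits without CR 48 h and the recounts of single hours and F tests were added after the data were seen.

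With 1 array left out the late count ran from 3 to 20, that against fed 2 to 12 h from 0 to 3, that of fed 2 to 12 h against fed 0 h from 0 to 3, that between the numbers from 22 to 32 and that at any late hour (4 called) from 1 to 15; those at any fed hour ran from 0 to 3 and the early and F test counts stayed at 0. Psmb1 in the late mean passed in 41 of 41 alternatives (-1.25 to -0.43) and Psmb10 against fed 2 to 12 h in 37 of 39 (-1.03 to -0.50). All 41 used the brighter probe set of Psmb1, and the dimmer one, not called in the late mean, did not enter this tally. For the named differences, of the alternatives that left out no single array, 251 kept their side of the threshold, 11 passed it newly and 48 lost it. The letters a and b were not shown to pair arrays: deviations of same-letter arrays correlated at -0.19 to 0.12 over 66 pairs, 2 of them over 0.1. With the letter as a replicate block the late count was 9 and the other main counts were 0, 1, 1 and 32. Dim probe sets near the floor and 2 arrays per group limit every count.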

Other observations

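Psmb5, the constitutive subunit of chymotrypsin-like cutting, was measured by a second, dimmer probe set with a mean signal of 696.8 beside 1939. The brighter one was 1.09 higher in fed 0 h number 1 than in number 2 and the dimmer one 0.05 (adjusted p = 0.905 by limma), and against fed 0 h late restriction gave -0.51 and 0.07. The probe sets of this gene therefore do not give 1 value, and which is nearer to the transcript level was not tested. For Psmb1 both probe sets were higher in number 1, by 0.66 and 1.29, and for Psmd11 all 3 were lower.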
